A study of Mus musculus with 35 samples.

Results

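The comparison described here is between iPS clones of different cellular origin: all 10 clones derived from PαS cells (PαS-iPS) against all 10 clones derived from tail tip fibroblasts (TTF-iPS), with the number of reprogramming factors as a covariate. These are 20 of the 35 arrays of the series. PαS cells are mesenchymal stem cells sorted from bone marrow as CD45-, Ter119-, PDGFRα+ and Sca-1+ cells, and TTF cells grew out of minced tails of adult mice and were used at passage 3. Both came from 6-week-old mice with a Nanog-GFP-Puro reporter, for which the donors of the PαS cells were heterozygous, and were infected with retroviruses for Oct3/4, Sox2 and Klf4 (3F), or for these and c-Myc (4F), together with DsRed as a marker of transgene silencing. Each of the 4 groups (4F-PαS-iPS, 3F-PαS-iPS, 4F-TTF-iPS and 3F-TTF-iPS) held 5 GFP+/DsRed- clones grown on mitomycin-C-treated SNL feeder cells in medium with LIF, with 1 array per clone. By RT-PCR the paper found no transgene expression in PαS-iPS clones, but incomplete silencing in several clones of other sources, TTF among them. It also reports that teratomas of 4F-TTF-iPS #1 held no mesoderm. The part of these traits in the differences below was not tested. A single array was made of each primary cell type, and the 2 arrays of ES cells were of the lines EB-3 and RF8.

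Reprogramming replaces the expression program of a somatic cell by that of a pluripotent cell, in which Oct3/4 (Pou5f1), Sox2 and Nanog maintain each other's transcription. Clones made from different tissues can keep part of the expression or DNA methylation of the cell they came from, which is known as memory of the source. Pluripotent cultures also hold cells that have begun to differentiate, toward trophoblast (marked by Cdx2, Gata3 and Hand1), primitive endoderm (Gata6, Sox17) or the germ layers, and a germline program that is silenced in somatic cells is partly expressed in ES cells. The comparison asks which of these programs depend on whether a clone came from marrow stem cells or from tail fibroblasts.

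Levels are given as log2 of the background-subtracted signal relative to the 75th percentile of the array, and differences as PαS-iPS minus TTF-iPS on the same log2 scale. They were fitted with limma, and a probe was called when its Benjamini-Hochberg adjusted p was under 0.05 and its difference at least 2-fold. A level is compared here between clones for the same probe, never between probes. The arrays of the 20 clones had 56.6% to 65.6% of their probes well above background, at a median of 63.2% (PαS-iPS) and 61.6% (TTF-iPS), and shared 1 scan session. They lay on 8 slides, of which 1 held both sources (3F-PαS-iPS #1 to #3 with 4F-TTF-iPS #5), so that source and slide can be told apart only in part. With slide as a random block 23 probes were called (0.0921%), 6 higher (0.0240%) and 17 lower (0.0681%), and results that passed that fit too are named as such. Pou5f1 and Zfp42 were well above background in all 20 clones, and Nanog in all but 4F-TTF-iPS #1. Fibroblast transcripts were present as well, and whether they came from feeders or from other cells was not tested. The summed signal of 28 fibroblast and feeder genes, relative to the 75th percentile, was 392 to 572 in 4F-PαS-iPS, 555 to 1024 in 3F-PαS-iPS, 739 to 950 in 4F-TTF-iPS and 574 to 747 in 3F-TTF-iPS clones. In RNA from a whole culture, fewer cells of a type and less RNA per cell cannot be told apart.

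Of 24976 probes tested, 380 (1.52%) were called: 138 (0.553%) were higher in PαS-iPS and 242 (0.969%) were lower. They stood for 120 and 215 named genes. Under quantile normalization 318 were called, 165 higher and 153 lower, and with normexp background correction 62, 34 higher and 28 lower, so that the excess of lower calls was not kept under either. The median difference of all tested probes was 0.01, and 1305 probes had an adjusted p under 0.05 at any fold. Without 4F-TTF-iPS #1 and #2, the TTF-iPS clones lowest in Nanog, 157 probes were called, of which 124 were among the 380, and none of the 380 changed sign. The 10 PαS-iPS and 10 TTF-iPS clones did not overlap at all for 34 probes (0.136%), 16 with higher (0.0641%) and 18 with lower levels (0.0721%) in PαS-iPS, and 13 of these 34 were among the called probes.

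The most sharply separated gene was Pi4k2b, which encodes a kinase that makes phosphatidylinositol 4-phosphate on endosomal membranes. Its level ranged from -0.07 to 0.60 (median 0.40) in PαS-iPS and from 1.38 to 2.28 (median 1.77) in TTF-iPS clones, on chromosome 5 (52141525 to 52141584, mouse build mm7). Every PαS-iPS clone lay below every TTF-iPS clone, by 2.74-fold on average (-1.45 ± 0.13 (SE, n = 10 and 10), limma adjusted p = 1.21e-05). A second Pi4k2b probe (52134226 to 52134285) gave -1.10 ± 0.12 (limma adjusted p = 1.08e-04) and did not overlap either, though with normexp it was under 2-fold (-0.78). The difference was -1.12 in 4F and -1.78 in 3F clones, and the gene was called in the fit with slide as a random block, without 4F-TTF-iPS #1 and #2, and with each of the 20 clones left out in turn.

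Mrpl47, a protein of the large subunit of the mitochondrial ribosome, was measured on chromosome 3 (32534517 to 32534576) at -4.24 to -2.54 (median -3.92) in PαS-iPS and -2.13 to -1.33 (median -1.67) in TTF-iPS clones. It was 3.92-fold lower in PαS-iPS clones (-1.97 ± 0.20 (SE), limma adjusted p = 4.79e-05). A further Mrpl47 probe measured a difference of 0.19 (limma adjusted p = 0.245), so the separation holds for the first probe and not for the gene as a whole. At this probe the ES arrays stood at -3.24 and -3.14, and the primary PαS and TTF cells at -1.25 and -1.04. Cd38, an ectoenzyme that consumes NAD, showed the opposite order: -2.48 to -0.93 (median -1.99) in PαS-iPS and -4.58 to -2.93 (median -3.71) in TTF-iPS clones, on chromosome 5 (43231735 to 43231794). It was 3.74-fold higher in PαS-iPS clones (1.90 ± 0.22 (SE), limma adjusted p = 1.5e-04), while its second probe gave -0.42 (limma adjusted p = 0.228). Both genes were also called with slide as a random block. Their differences shrank with normexp, that of Mrpl47 to -0.94 (limma adjusted p = 0.0214), which is under 2-fold and no longer a call, and that of Cd38 to 1.16 (0.00182).

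Psmb8, the inducible catalytic subunit of the immunoproteasome, reached -1.87 at most in PαS-iPS clones (lowest -5.41, median -2.99) and was at -1.62 or above in all TTF-iPS clones (median -0.63, highest -0.13). It was lower in PαS-iPS clones by -2.27 ± 0.34 (SE, limma adjusted p = 0.00266). A single PαS-iPS clone, 4F-PαS-iPS #4, was not well above background. Where clones were dim, the fold is given as a bound: on each such array the smallest signal among detected probes stood in for the dim one if it exceeded it. For Psmb8 this bound was at least 4.77-fold. A second Psmb8 probe was called too (-2.02 ± 0.39 (SE), limma adjusted p = 0.00831). Ccl5, a chemokine that attracts T cells and monocytes, lay below every TTF-iPS clone in all PαS-iPS clones at both of its probes, with -3.70 to -0.16 against 0.16 to 1.69 at the brighter of them (-2.22 ± 0.37 (SE), limma adjusted p = 0.0044). Ppef2, a calcium-binding protein phosphatase known from photoreceptors, was detected above background in 8 TTF-iPS clones and 1 PαS-iPS clone, and its level in the latter source was at least 2.91-fold lower (limma adjusted p = 2.16e-04). Psmb8 and Ppef2 passed the fit with slide as a random block, as Ccl5 did. With normexp background correction, however, the Ppef2 difference was -0.19 (limma adjusted p = 0.72).

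The remaining genes without overlap separated less widely or rested on dim signals. Gpd1, the cytosolic glycerol-3-phosphate dehydrogenase, was at -3.83 to -1.60 in PαS-iPS and -1.37 to 1.14 in TTF-iPS clones (-1.95 ± 0.36 (SE), limma adjusted p = 0.00769). Ccdc96, a coiled-coil protein, was at -4.32 to -3.30 against -3.19 to -1.60 (-1.09 ± 0.20 (SE), limma adjusted p = 0.00598). Manba, the lysosomal beta-mannosidase, was higher in PαS-iPS clones, at 2.81 to 4.99 against 1.24 to 2.74 (1.10 ± 0.27 (SE), limma adjusted p = 0.0239). The transporters Slc35g1 and Slco4c1 were higher as well, by at least 2.06-fold and at least 1.71-fold, and Slco4c1 was detected in all 10 PαS-iPS clones but in 1 TTF-iPS clone. With normexp the calls of Slc35g1 (0.55, limma adjusted p = 0.132), Slco4c1 (0.51, 0.231), Ccdc96 (-0.39, 0.386) and Manba (1.05, 0.0629) were lost. Manba (0.0783) and Slc35g1, then under 2-fold at 0.89, were also lost without 4F-TTF-iPS #1 and #2. With slide as a random block none of these genes passed the threshold, with limma adjusted p of 0.0581 to 0.181. Another 21 non-overlapping probes differed by less than 2-fold, among them those of Scyl3 (0.68), Mitf (0.77), Atf2 (0.45) and Erap1 (-0.70), or did not pass the threshold, as Nkx2-6 (-0.85, limma adjusted p = 0.149).

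**Figure D1:**
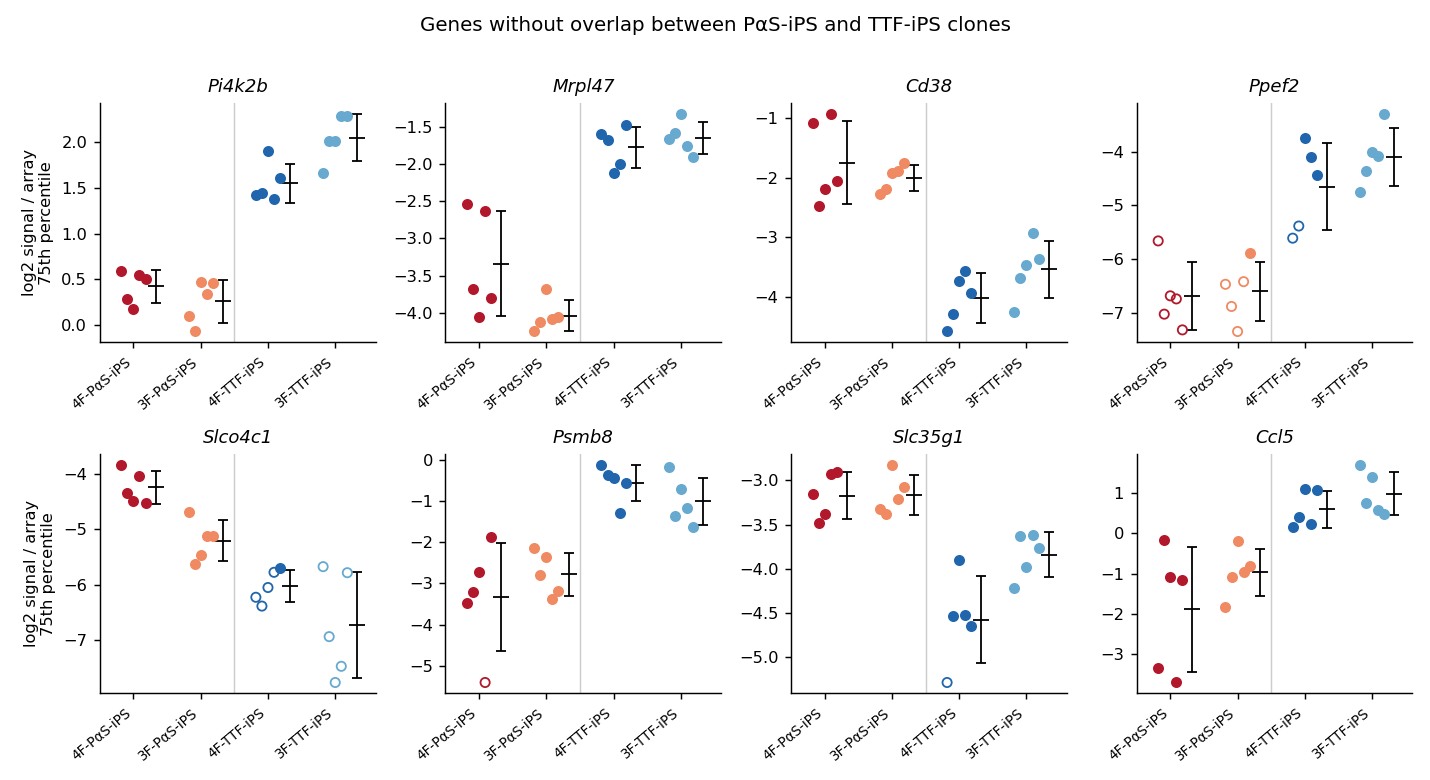
Log2 signal relative to the 75th percentile of the array (vertical axis) for 8 genes whose PαS-iPS and TTF-iPS clones did not overlap, by group of 5 clones. Points are single clones, open circles are signals not well above background, and bars give the mean ± SD of each group. A gap between the PαS-iPS groups on the left of each grey line and the TTF-iPS groups on the right is seen in each panel, and it is widest relative to the spread for Pi4k2b, from 0.60 to 1.38.

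Among the 12 largest increases in PαS-iPS clones, Cyp4f14, a cytochrome P450 that hydroxylates fatty acids and leukotrienes, had the largest. It was at -2.86 to 2.52 (median 0.55) in PαS-iPS and -7.33 to 1.00 (median -3.97) in TTF-iPS clones. The groups overlapped, with 4 PαS-iPS clones above the highest TTF-iPS clone, and the difference was at least 11.7-fold (limma adjusted p = 0.0148). The epithelial genes Havcr1, a phosphatidylserine receptor induced in injured kidney tubules, and Zg16, a lectin secreted by goblet cells, were at least 4.93-fold and 5.95-fold higher (limma adjusted p = 0.0235 and 0.024). Ihh, the Indian hedgehog ligand that visceral endoderm and cartilage secrete, was at -2.16 to 2.50 against -3.57 to 0.06 (2.35 ± 0.51 (SE), limma adjusted p = 0.0147). Lcp1, an actin-bundling protein of blood cells, was at least 4.86-fold higher (limma adjusted p = 0.00552), with 9 PαS-iPS clones above the highest TTF-iPS clone. In the primary cells the order of Lcp1 was the reverse, at -6.03 in PαS and 5.18 in TTF cells. Fam151a was at least 4.87-fold higher (limma adjusted p = 0.0491). With normexp the differences of Havcr1 (1.39), Zg16 (1.47) and Fam151a (1.40) did not pass the threshold (limma adjusted p = 0.0747, 0.0639 and 0.0993). Each of these genes had a higher mean in PαS-iPS clones for 4F and for 3F alike. Without 4F-TTF-iPS #1 and #2 Lcp1 passed (limma adjusted p = 0.0204), and Cyp4f14, Havcr1, Zg16, Ihh and Fam151a did not (0.0522 to 0.151).

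Of the 12 genes, 5 lie on the X chromosome. Fthl17a, a ferritin heavy chain-like gene of a family of near-identical copies, was at -3.24 to 0.12 (median -0.86) in PαS-iPS and -5.71 to -0.74 (median -3.70) in TTF-iPS clones. The difference was at least 5.61-fold (limma adjusted p = 0.00306) and, alone among the 12 increases, passed with slide as a random block (limma adjusted p = 0.0302). Ldoc1, a gene derived from a retrotransposon Gag protein, was detected in 9 PαS-iPS clones and in 4 TTF-iPS clones, and was at least 3.16-fold higher (limma adjusted p = 0.0077), or by 0.81 with normexp (limma adjusted p = 0.0714). Arhgef6, which activates Rac and Cdc42, was at least 5.50-fold higher (limma adjusted p = 0.0263), and its 2 other tested probes were called too. The other 2 X-linked genes were Fam90a1b (at least 3.66-fold, limma adjusted p = 0.0448, or 0.0533 with normexp) and 3830417A13Rik (2.33 ± 0.61 (SE), limma adjusted p = 0.0331). Over the whole array 16 of 837 tested X-linked probes were called higher (1.91%) and 1 lower, against 120 of 23883 autosomal probes higher (0.502%) and 237 lower. Without 4F-TTF-iPS #1 and #2 the shares called higher were 0.704% and 0.140%, and with slide as a random block 1 X-linked probe (0.120%) and 5 autosomal probes (0.0209%) were called higher. In 4F clones they were 6.93% and 3.85%, and in 3F clones 0.239% and 0.234%.

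The largest decrease by fitted difference was that of Olig1, a bHLH factor of the oligodendrocyte lineage. Its level was -8.27 to -2.94 (median -5.55) in PαS-iPS and -3.74 to 0.05 (median -1.40) in TTF-iPS clones, and 5 PαS-iPS clones were not well above background. The difference was at least 9.87-fold (limma adjusted p = 0.00289), while those of Pkp1 (at least 12.9-fold) and Cbr2 (11.1-fold), described below, were larger by this measure. The fitted Olig1 difference was -4.01 over all clones and in 3F clones. With 5 PαS-iPS clones not well above background, these fitted values are not exact. Pnoc, the precursor of the peptide nociceptin, was at least 5.84-fold lower (limma adjusted p = 0.0375), with -2.89 in 4F and -2.22 in 3F clones. Ccl21c, a ligand of Ccr7 that belongs to a group of near-identical copies, was at least 4.51-fold lower (limma adjusted p = 0.0393), with -0.75 in 4F and -4.20 in 3F clones. It was well above background in only 5 of 10 PαS-iPS clones, so that these fitted values are not exact. With normexp neither Pnoc (-1.23, limma adjusted p = 0.213) nor Ccl21c (-0.73, 0.298) was called.

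A further 6 of the 12 decreases came mainly from 4F clones. Pkp1, a desmosomal plakophilin, was at 1.47 to 3.32 in 4F-TTF-iPS clones, against 1.37 in 4F-PαS-iPS #2 and -7.26 to -4.88 in the other 4F-PαS-iPS clones. Its difference was -6.63 in 4F and -1.15 in 3F clones (limma interaction adjusted p = 0.0322), and over all clones it did not pass with normexp (-2.06, limma adjusted p = 0.0914). The interaction tests given here and below did not model slide, and with slide as a random block 0 of all tested probes passed (smallest limma adjusted p = 0.349). Cbr2, a carbonyl reductase of lung epithelium, differed by -6.17 in 4F and -0.78 in 3F clones (interaction adjusted p = 0.00526). S100a14, an EF-hand protein of epithelia, differed by -5.98 and -0.59 (interaction adjusted p = 0.0184), and Slc38a5, a transporter of neutral amino acids, by -5.33 and -0.62 (interaction adjusted p = 0.0172). For Ly6d, a surface antigen of keratinocytes and lymphocytes, the values were -5.16 and -0.28 (0.0125), and for Gna14, a G protein α subunit, -4.86 and -0.23 (0.01). In the 3F groups each of these 6 genes overlapped between the sources. Over all 20 clones S100a14 (limma adjusted p = 0.0805), Slc38a5 (0.0533), Ly6d (0.130) and Gna14 (0.0891) did not pass with normexp either, while Cbr2 did (0.0361). Without 4F-TTF-iPS #1 and #2 the 6 genes had limma adjusted p of 0.0592 to 0.129, and Ly6d and Gna14 also missed the threshold under quantile normalization (0.0717 and 0.0617).

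At 2 genes the call rested on a single probe whose clones fell far apart. Pkd2, the cation channel polycystin-2, was at -4.17 to -2.54 in PαS-iPS clones, at -0.94 to 0.52 in 9 TTF-iPS clones and at -3.87 in 4F-TTF-iPS #3 (-2.87 ± 0.44 (SE), limma adjusted p = 0.00266). Another Pkd2 probe gave -0.08 (limma adjusted p = 0.857). Zfp945, a zinc finger protein gene of chromosome 17, was at 0.34 to 0.77 in 3 PαS-iPS clones, at -7.02 to -5.78 in the other 7 and at -1.07 to -0.35 in all TTF-iPS clones (at least 9.47-fold lower, limma adjusted p = 0.0415, or 0.162 with normexp). Its 2 other tested probes gave -0.01 and 0.17, and the call held with 4 of the 20 clones left out in turn.

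Of 12 tested genes of the trophoblast list, 5 were higher in PαS-iPS clones (0.553% of all tested probes were), none was lower, and 11 had a positive difference, with a list median of 0.55 against 0.01 for all tested probes. The gene lists here and below were chosen with earlier results of these data known, which limits what such counts show. Of these 5 genes, 0 passed with slide as a random block, and without 4F-TTF-iPS #1 and #2 only Plac1 did. In 4F clones alone 4 genes of the list were called higher and 1 lower, against 3.98% and 3.68% of all tested probes. With slide as a random block 0 were called in 4F clones. In 3F clones alone 0 were called. The called genes over all 20 clones were the transcription factors Hand1, Cdx2, Gata3 and Tfap2c, which specify trophoblast, and Plac1, an X-linked protein of the placenta. Summed over the 14 genes of the list, the signal was 38.8 to 478 in 4F-PαS-iPS, 355 to 669 in 3F-PαS-iPS, 126 to 305 in 4F-TTF-iPS and 196 to 398 in 3F-TTF-iPS clones, and 16.5 and 45.8 in the ES arrays. The promoters of Cdx2 and Gata3 are shown because both genes were called and carry a match to the AP-2 motif (GCCNNNGGC, which is its own reverse complement) bound by factors of the Tfap2c family. The sequences are from RefSeq (GRCm38.p6), 250 bases before to 50 after the start site and both on the minus strand, with matches in capitals: Cdx2 at chr5:147307200-147307499 and Gata3 at chr2:9878551-9878850.
Cdx2: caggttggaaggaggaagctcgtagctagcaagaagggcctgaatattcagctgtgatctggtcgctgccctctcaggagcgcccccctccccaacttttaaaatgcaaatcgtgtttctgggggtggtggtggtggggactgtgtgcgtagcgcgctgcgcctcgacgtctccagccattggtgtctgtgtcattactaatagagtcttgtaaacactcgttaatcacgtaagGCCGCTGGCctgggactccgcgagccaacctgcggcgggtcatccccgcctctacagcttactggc
Gata3: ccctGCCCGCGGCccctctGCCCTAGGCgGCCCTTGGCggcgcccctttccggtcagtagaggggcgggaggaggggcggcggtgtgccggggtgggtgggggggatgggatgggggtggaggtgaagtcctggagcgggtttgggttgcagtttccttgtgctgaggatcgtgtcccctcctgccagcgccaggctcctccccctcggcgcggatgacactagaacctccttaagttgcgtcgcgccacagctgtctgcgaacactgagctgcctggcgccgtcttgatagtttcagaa
Cdx2 has 1 match, which starts 16 bases before the start site, and Gata3 has 3, which start 246, 231 and 221 bases before it. The motif occurs in 16.6% of 32851 promoter windows of this length. It occurs in 2 of the 3 called trophoblast genes with a promoter in the table and in 2 of the 7 genes tested and not called (Krt7 and Krt18), and a match is a description of the sequence only.

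Cdx2, which specifies the first trophoblast cells, was at -2.77 to 1.06 (median -0.98) in PαS-iPS and -4.11 to -0.45 (median -2.26) in TTF-iPS clones (chromosome 5, 146195375 to 146195434, mm7). The difference was 1.62 ± 0.40 (SE, limma adjusted p = 0.0261, or 0.0577 with normexp), and it was 1.62 in 4F and 1.61 in 3F clones. The 3 PαS-iPS clones above all TTF-iPS clones were 3F-PαS-iPS #3, #4 and #5, at 0.77 to 1.06. Gata3, at -0.82 to 2.04 (median 1.10) against -1.19 to 0.59 (median -0.76), was 1.25 ± 0.31 higher (SE, limma adjusted p = 0.0269), and 7 PαS-iPS clones exceeded every TTF-iPS clone. In 4F-PαS-iPS cells, clones #3 and #5 (2.04 and 1.57) stood apart from #1, #2 and #4, which were at -0.82 to -0.35 and within the range of 4F- and 3F-TTF-iPS clones. The same 4F-PαS-iPS clones, #3 and #5, were the highest of their group for Hand1 (1.87 and 1.99) and Plac1 (0.95 and 0.39). These clones shared 1 slide, #1 and #4 shared another and #2 lay on a further one, so that clone and slide cannot be told apart in this split.

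Hand1, which directs trophoblast giant cells, was at -4.08 to 1.99 (median 0.97) in PαS-iPS and -7.49 to 1.03 (median -2.37) in TTF-iPS clones and at least 5.38-fold higher (limma adjusted p = 0.0455). It was called with 4 of the 20 clones left out in turn. Plac1 was at -1.73 to 0.95 against -2.83 to -0.36 (1.495 ± 0.33 (SE), limma adjusted p = 0.0145), and it alone of the 5 was called without 4F-TTF-iPS #1 and #2. Tfap2c, an AP-2 factor of trophoblast and germ cells, was at 1.33 to 3.45 against -0.40 to 2.49 (1.30 ± 0.31 (SE), limma adjusted p = 0.0236), and differed by 2.19 in 4F and 0.40 in 3F clones (interaction adjusted p = 0.0294). The 5 genes had limma adjusted p of 0.154 to 0.253 with slide as a random block. The keratins Krt7, Krt8 and Krt18, which mark simple epithelia, were at 0.40, 0.17 and 0.19 (limma adjusted p of 0.751 to 0.85).

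Called germline genes were the homeobox genes Rhox6 and Rhox9 of the X-linked cluster, which placenta and germ cells express, 2 of 26 tested, against 0.553% of all tested probes called higher. None of the 26 was called with slide as a random block, and without 4F-TTF-iPS #1 and #2 Rhox9 alone was. Rhox6 was at 3.03 to 6.75 (median 6.08) in PαS-iPS and 2.44 to 5.82 (median 3.62) in TTF-iPS clones (1.78 ± 0.39 (SE), limma adjusted p = 0.0158). Probes of this cluster may share signal between similar copies, so which copy was measured is uncertain. Rhox9 was at 3.17 to 6.95 (median 6.08) against 1.69 to 5.84 (median 3.48), a difference of 2.10 ± 0.43 (SE, limma adjusted p = 0.0106). For both genes 6 PαS-iPS clones lay above the highest TTF-iPS clone, and 4F-PαS-iPS #1 and #4 were the lowest of the PαS-iPS clones. Those arrays shared a slide and had the smallest shares of probes well above background of the 20 (56.6% and 56.7%), and the part of this in their levels was not tested. Peg10, a paternally expressed retrotransposon-derived gene needed for placenta, was called among 36 imprinted genes, at -2.73 to -0.70 against -3.91 to -2.16 (1.22 ± 0.27 (SE), limma adjusted p = 0.017). Dnmt3l, the cofactor of the de novo DNA methyltransferases, was called among 15 DNA methylation genes, at 4.90 to 6.46 (median 5.54) against 1.09 to 5.28 (median 4.63), with 7 PαS-iPS clones above all TTF-iPS clones (1.56 ± 0.41 (SE), limma adjusted p = 0.0341). With normexp neither Peg10 (0.76, limma adjusted p = 0.0577) nor Dnmt3l (1.51, 0.0732) passed, nor did they without 4F-TTF-iPS #1 and #2 (0.0512 and 0.0607), and Dnmt3l was called with 13 of the 20 clones left out in turn. The methyltransferases Dnmt3a (0.79) and Dnmt3b (0.83) had limma adjusted p of 0.0452 and 0.0374 and were under 2-fold. Of the imprinted noncoding RNAs of the Dlk1-Dio3 cluster, Gtl2 differed by 0.84 and Rian by 0.88 (limma adjusted p = 0.409 and 0.352).

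**Figure D2:**
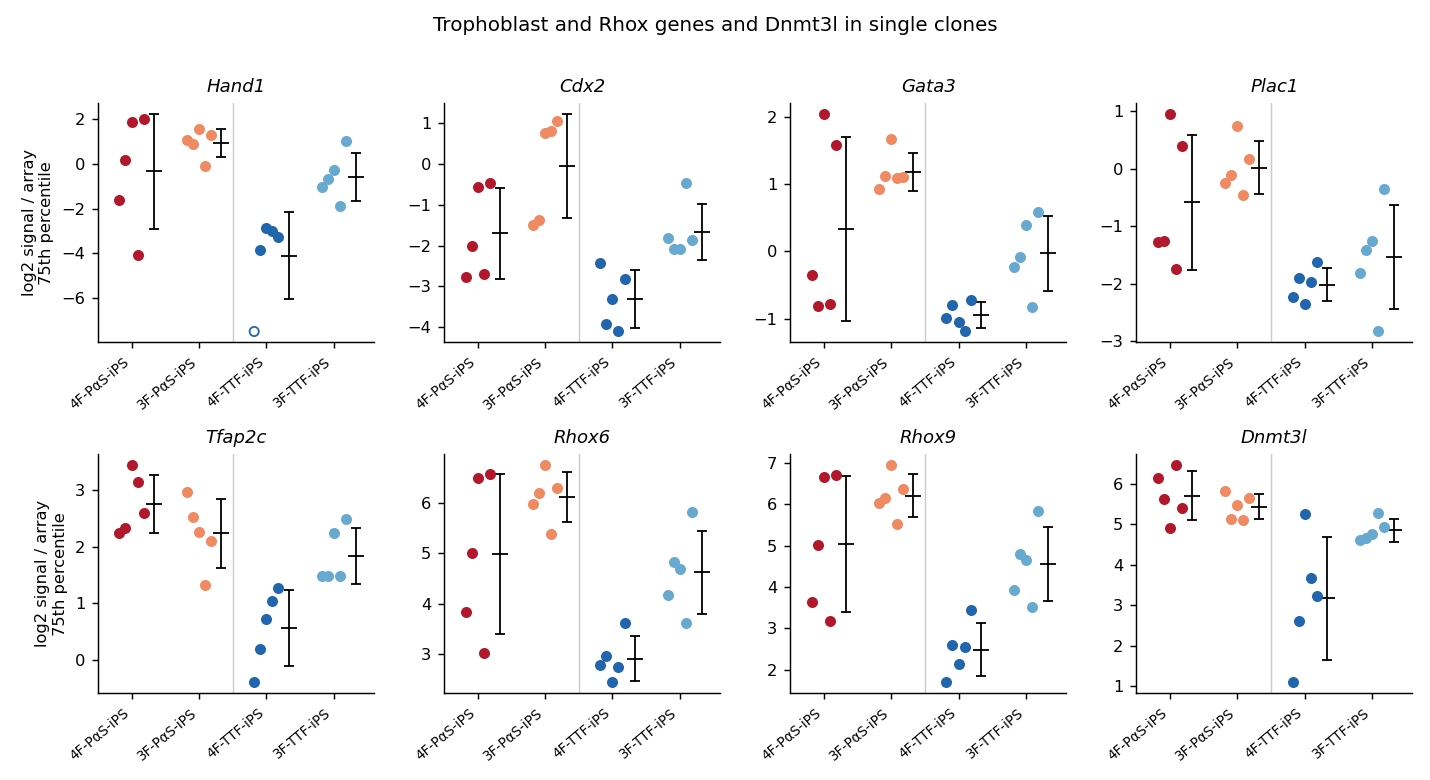
Log2 signal relative to the 75th percentile of the array (vertical axis) for the 5 called trophoblast genes, Rhox6, Rhox9 and Dnmt3l, by group of 5 clones. Points are single clones, the open circle a signal not well above background, and bars the mean ± SD. For Gata3, 3F-PαS-iPS clones lie at 0.93 to 1.67 and above all TTF-iPS clones, while 4F-PαS-iPS clones split between #3 and #5 (2.04 and 1.57) and 3 clones near the 4F-TTF-iPS clones.

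Immediate early genes, transcribed within minutes of a growth or stress signal, showed the reverse: 4 of 17 tested were lower in PαS-iPS clones (0.969% of all tested probes were), none was higher, and 16 had a negative difference, with a list median of -0.39. The called genes were the zinc finger factors Egr1, Egr2 and Egr3 and the orphan nuclear receptor Nr4a1. Of these 4, Egr1 and Egr2 were also called with slide as a random block. Jun, the AP-1 subunit, had a difference of -0.92 (limma adjusted p = 0.00297), short of 2-fold, whereas Fos (-0.00) and Myc (-0.07) had limma adjusted p of 0.999 and 0.892. Such genes carry serum response elements, known as CArG boxes, and cAMP response elements, of which the shared core TGACG was searched on both strands. The promoters of Egr2 and Nr4a1 are shown because both genes were called, from RefSeq (GRCm38.p6), with the CArG box in capitals for Egr2 and the core, read as CGTCA, in capitals for Nr4a1: Egr2 at chr10:67537680-67537979 and Nr4a1 at chr15:101266596-101266895, both on the plus strand.
Egr2: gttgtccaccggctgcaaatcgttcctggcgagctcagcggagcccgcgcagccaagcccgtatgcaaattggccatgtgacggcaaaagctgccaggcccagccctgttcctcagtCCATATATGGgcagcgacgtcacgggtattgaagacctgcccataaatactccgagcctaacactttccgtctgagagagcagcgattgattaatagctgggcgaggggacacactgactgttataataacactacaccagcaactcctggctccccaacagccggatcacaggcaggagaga
Nr4a1: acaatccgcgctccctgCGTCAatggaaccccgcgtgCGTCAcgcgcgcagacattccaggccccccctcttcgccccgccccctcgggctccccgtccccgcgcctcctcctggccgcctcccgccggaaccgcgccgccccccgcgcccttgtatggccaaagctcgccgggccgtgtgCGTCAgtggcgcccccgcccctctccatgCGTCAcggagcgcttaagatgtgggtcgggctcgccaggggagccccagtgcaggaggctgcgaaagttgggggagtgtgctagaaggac
The Egr2 window is that of 1 of its 5 start sites, of which 4 have a CArG box, and here the box starts 133 bases before the start site. CArG boxes occur in 1.63% of all 32851 windows and the core in 20.8%. Nr4a1 has 4 matches to the core. Among the list's genes with a promoter in the table, a CArG box was found for 1 of 2 called genes and for 1 of 10 not called (Zfp36), and the core for 2 of 2 and 6 of 10.

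Egr1 was at -1.13 to 1.59 (median 0.32) in PαS-iPS and 0.41 to 3.21 (median 1.66) in TTF-iPS clones (chromosome 18, 35240842 to 35240901, mm7). The difference was -1.38 ± 0.21 (SE, limma adjusted p = 0.00266), and 6 PαS-iPS clones lay below every TTF-iPS clone. In 3F clones the sources did not overlap, at 0.24 to 1.59 against 2.17 to 3.21. Egr2 was at -4.39 to -2.97 (median -3.56) against -3.80 to -0.81 (median -1.82), a difference of -1.42 ± 0.29 (SE, limma adjusted p = 0.0106), with -2.30 in 3F and -0.54 in 4F clones (interaction adjusted p = 0.0202). Egr1 and Egr2 passed with slide as a random block (limma adjusted p = 0.0206 and 0.026). With normexp the Egr2 difference was -0.66 (limma adjusted p = 0.255), and that of Egr1 was -1.27 (0.00574).

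Egr3 was well above background in none of the PαS-iPS clones and in 7 TTF-iPS clones, and at least 1.53-fold lower (limma adjusted p = 0.0085), but its difference was 0.01 with normexp. Nr4a1 was at 2.05 to 4.44 (median 3.77) against 3.15 to 5.42 (median 4.67), with -1.07 ± 0.25 (SE, limma adjusted p = 0.0205). All TTF-iPS clones but 4F-TTF-iPS #5 lay above every PαS-iPS clone. Within the slide that held both sources, which compares this clone with 3F-PαS-iPS clones, Nr4a1 was 0.68 higher in PαS-iPS clones, and with slide as a random block it did not pass (limma adjusted p = 0.189). Egr1 and Nr4a1 were also higher in the primary PαS (3.27 and 4.04) than in the primary TTF cells (-0.01 and 0.43), which is the opposite order to that of the clones. The summed signal of the list was 54.9 to 78.4 in 4F-PαS-iPS, 70.8 to 111 in 3F-PαS-iPS, 69.2 to 124 in 4F-TTF-iPS and 95.7 to 147 in 3F-TTF-iPS clones. Without 4F-TTF-iPS #1 and #2, Egr1, Egr2 and Egr3 were called, and with slide as a random block Egr1, Egr2 and Jun, which had been under 2-fold over the 20 clones without the block.

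Most other lists held 1 called gene or 0, in lists of 7 to 36 tested genes, while 0.553% of all tested probes were called higher and 0.969% lower. Of 15 retinoid genes, the retinoic acid carrier Crabp2 was lower in PαS-iPS clones, at -5.76 to -3.40 (median -4.86) against -4.55 to -1.20 (median -2.21) and by at least 4.57-fold (limma adjusted p = 0.00533, or 0.152 with normexp), and 12 of the 15 had negative differences (median -0.56). Of 15 anterior and central Hox genes all had a negative difference (median -0.32) and Hoxb7 was called (-1.44 ± 0.33 (SE), limma adjusted p = 0.0182), but not with normexp (-0.93, limma adjusted p = 0.07) or without 4F-TTF-iPS #1 and #2 (0.0609). Hoxb2 (-1.18) and Hoxb6 (-0.95) had limma adjusted p of 0.0599 and 0.0744, and posterior Hox genes, 0 of 10 called, had a median of -0.21, with Hoxc10 at -2.93 in 4F and 0.42 in 3F clones (interaction adjusted p = 0.00934). Quantile normalization moved the median of the anterior and central list to -0.25 and normexp moved it to 0.01.

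Summed levels of mesenchymal markers did not overlap between the sources in 4F clones and overlapped in 3F clones. The summed signal of 16 mesenchymal stem cell genes was 28.9 to 36.2 in 4F-PαS-iPS and 51.1 to 65.3 in 4F-TTF-iPS clones, which did not overlap, and 31.2 to 48.3 and 34.6 to 42.3 in the 3F groups, which did, and the sums of fibroblast and feeder genes given above followed the same order in 4F clones. Of 27 fibroblast and feeder genes, the smooth muscle calponin Cnn1 was lower (-1.34 ± 0.25 (SE), limma adjusted p = 0.00803), with -0.79 in 4F and -1.90 in 3F clones, and the list median was -0.23. Col1a1, the main collagen of fibroblasts, differed by 0.02 (limma adjusted p = 0.983). Of 14 mesenchymal stem cell genes, 12 had negative differences (median -0.35), and Nes, an intermediate filament of neural and mesenchymal stem cells, was called (-1.17 ± 0.28 (SE), limma adjusted p = 0.0215, or 0.076 without 4F-TTF-iPS #1 and #2). Nes was also the called member of 9 neuroectoderm genes (median -0.47). The sorting markers of PαS cells were not higher in the clones made from them: Pdgfra, the PDGF receptor α, differed by -0.23 (limma adjusted p = 0.584), and Ly6a, which encodes Sca-1, by -0.95 (limma adjusted p = 0.28). For Ly6a the difference was -2.77 in 4F clones, where 4F-TTF-iPS clones were at 2.45 to 4.46 and 4F-PαS-iPS clones at -0.51 to 1.51, and 0.87 in 3F clones (interaction adjusted p = 0.00355). None of 16 bone, fat and cartilage genes (median 0.12) or 12 mesenchyme transcription factors (median -0.35) was called, and Bglap, osteocalcin, stood at 0.92 and Pitx1 at -0.73 (limma adjusted p = 0.155 and 0.117).

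The lists of immune genes held 1 called gene or 0 each, and immune genes outside them, such as Ccl21c and Mpeg1, were called too, though neither with normexp. Ccl5 was the called member of 16 chemokines (median -0.32), and Psmb8 of 13 MHC class I genes (median -0.08), whose partner subunits Psmb9 and Psmb10 differed by 0.10 and -0.13. The peptidase Erap1 (-0.70) and the nonclassical H2-M3 (-0.52) had limma adjusted p of 0.00489 and 0.00817 at under 2-fold. None of 28 interferon-stimulated genes was called (median -0.17), and Zbp1, a sensor of nucleic acids, was furthest from 0 at -1.08 (limma adjusted p = 0.0691). Among 11 haematopoietic genes (median 0.62) Lcp1 was called, and Ptprc (CD45) and Itgam were not well above background in any of the 20 clones. None of 25 glycolysis genes was called, though 22 had a positive difference (median 0.23), with hexokinase Hk2 at 0.65 (limma adjusted p = 0.0483). The medians of 10 Myc family genes (-0.01), with Mxd1 at -0.65, 16 primitive endoderm genes (-0.15), with the endocytic receptor Cubn at 0.93, and 14 X-inactivation and dosage genes (0.19) came with 0 calls. Xist, the RNA that coats the inactive X chromosome, ranged from -5.19 to 2.92 in PαS-iPS and from -7.26 to 3.29 in TTF-iPS clones (-2.53, limma adjusted p = 0.24). Of 13 epiblast and primitive streak genes (median 0.30), the homeobox gene Evx1 was called lower (at least 1.48-fold, limma adjusted p = 0.0346), detected in 6 TTF-iPS clones and 1 PαS-iPS clone, while its difference was 0.00 with normexp.

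**Figure D3:**
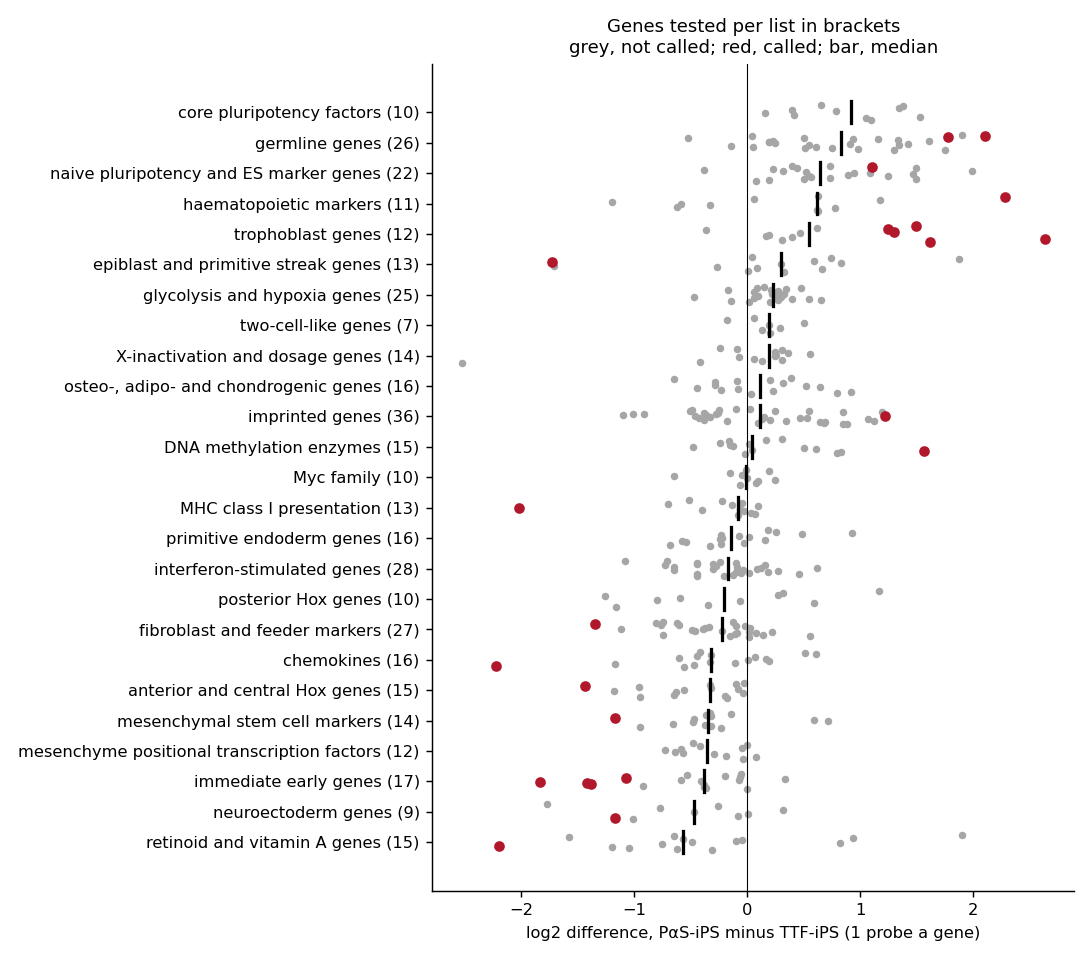
Log2 difference between PαS-iPS and TTF-iPS clones (horizontal axis) of each tested gene, 1 probe a gene, for the 25 lists with more than 1 tested gene, ordered by their median. Red points are called genes, grey points genes not called, and bars the list medians, which lie between -0.56 (retinoid and vitamin A genes) and 0.92 (core pluripotency factors). The lists with most called genes are the trophoblast list on the right (5) and the immediate early list on the left (4). All lists were chosen with earlier results of these data known.

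The source difference was also fitted in 4F and in 3F clones, without slide as a term. In 4F clones alone, 1913 probes (7.66%) were called, 993 higher (3.98%) and 920 lower (3.68%) in PαS-iPS, and in 3F clones alone 243 (0.973%), 59 higher (0.236%) and 184 lower (0.737%). Under quantile normalization the 3F calls were 118 higher and 91 lower, so that their excess of lower calls turned around, and with normexp they were 12 and 21. The 3F calls were 4 with slide as a fixed block, 1 higher and 3 lower, and no slide held 3F clones of both sources. The test of the difference between these differences passed for 1731 probes (6.93%), for 957 (3.83%) with the higher value in 4F clones and for 774 (3.10%) with the higher value in 3F clones, a majority that reversed under quantile normalization (802 and 968). With slide as a random block 35 probes were called in 4F clones, 8 in 3F clones and 0 for the interaction, where 1940 had an unadjusted p under 0.05 (7.77%). Clones 4F-TTF-iPS #1 to #4 lay on 1 slide and 3F-TTF-iPS #2 to #5 on another, and 4F-PαS-iPS shared no slide with 3F-PαS-iPS clones, so that factor number and slide cannot be told apart here. Leaving out 1 clone gave 979 (without 4F-TTF-iPS #2) to 2528 probes for the interaction and as few as 1260 calls in 4F clones (without 4F-TTF-iPS #1). Across the 24976 tested probes, which share arrays and are not independent, the 4F and 3F differences had a Pearson correlation of -0.04, and 47.2% of the probes had the same sign in both. There were 39 probes called in both fits, which is 2.04% of the 4F calls and 16.1% of the 3F calls, and 17 of these had the same direction. Without 4F-TTF-iPS #1 and #2 there were 504 calls in 4F clones and 274 probes that passed the interaction, and the correlation was 0.10. Of the 380 probes called over all 20 clones, 187 had an unadjusted p under 0.05 in 4F and in 3F clones alike and 87 passed the interaction.

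**Figure D4:**
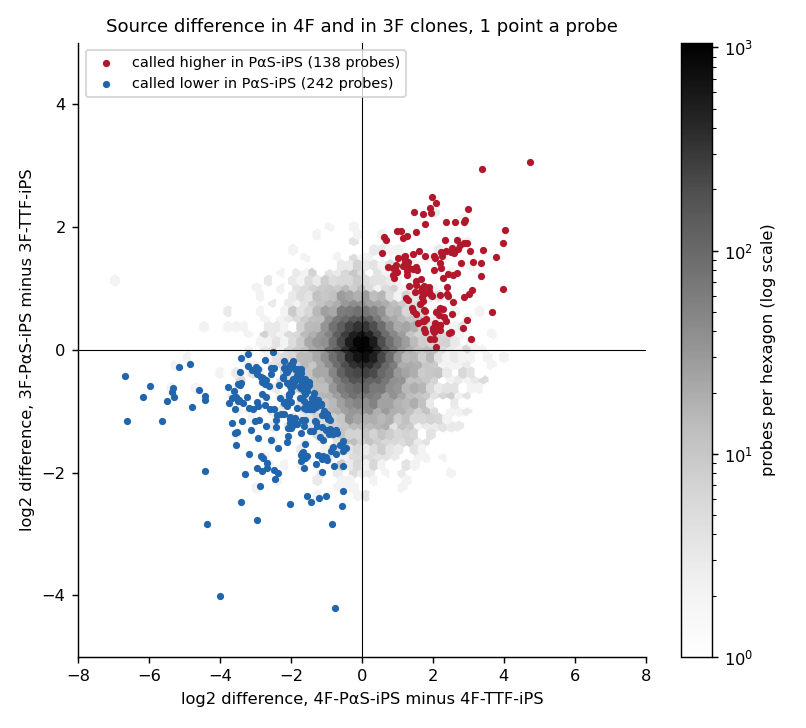
Source difference in 4F clones (horizontal axis) against that in 3F clones (vertical axis), both as log2 PαS-iPS minus TTF-iPS, for 24976 probes. Grey hexagons give the number of probes on a log scale, red points the 138 probes called higher and blue points the 242 called lower over all 20 clones. The call rests on the average of both differences, and the medians of the called points were further from 0 in 4F clones (2.01 and -2.01) than in 3F clones (1.23 and -0.95).

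The genes with the smallest interaction p without slide in the fit differed in 4F clones and hardly, or the other way, in 3F clones. Klk1, tissue kallikrein of a family of similar copies, was at 2.28 to 5.32 in 4F-TTF-iPS and -3.80 to 0.01 in 4F-PαS-iPS clones, and at -5.49 to -1.93 in all 3F clones (-7.06 in 4F, 1.10 in 3F, interaction adjusted p = 8.84e-04). Cavin1, a coat protein of caveolae, was at 2.42 to 3.14 in 4F-TTF-iPS clones and 1.06 to 1.74 in all others (-1.40 and 0.26, the same adjusted p). Usp48, a deubiquitinase, was at -0.82 to -0.52 in 4F-TTF-iPS clones and 0.12 to 1.04 in all others (1.39 and -0.13). For both genes the 4F-TTF-iPS clones stood apart from the other 3 groups without overlap. Utp14b, a retrogene of ribosomal RNA processing, crossed, with 1.31 in 4F and -1.36 in 3F clones. Ankrd34b was well above background in all 5 4F-PαS-iPS clones and in 1 other clone, 3F-TTF-iPS #5 (3.04 and -1.89, interaction adjusted p = 6.06e-04), so that its 4F, 3F and interaction values are all set against signals not well above background.

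In the fit without slide, germline genes had the widest gap between 4F and 3F among the lists. Of 26 tested, 16 were higher in 4F-PαS-iPS than in 4F-TTF-iPS clones (median difference 2.18), against 3.98% of all tested probes. None was called in 3F clones (median -0.41), and 11 passed the interaction, against 6.93% of all. Dazl, an RNA-binding protein of germ cells, differed by 4.13 in 4F and -0.63 in 3F clones (interaction adjusted p = 0.041), and Stra8, which licenses meiosis, by 4.51 and -0.70 (0.0478). The synaptonemal complex proteins Tex12 (3.23 and -0.03) and Sycp3 (2.69 and -1.20) and the axis protein Hormad1 (3.33 and -0.67) followed the same order. These values rested in part on the low-Nanog clones: without 4F-TTF-iPS #1 and #2 the 4F median was 1.51, 4 genes were called and 2 passed the interaction, and with slide as a random block 0 were called in 4F clones and 0 passed the interaction. Core pluripotency factors, for which 5 of 10 were called higher in 4F clones and 0 in 3F clones, had 4F and 3F medians of 1.43 and 0.40. Without 4F-TTF-iPS #1 and #2 their 4F median was 0.79 with 0 called, and with slide as a random block 0 were called in 4F clones. Over all 20 clones Pou5f1 differed by 1.09 (limma adjusted p = 0.0537), Nanog by 1.53 (0.279) and Sox2 by 1.05 (0.452), and none of the 10 was called although all 10 differences were positive. Naive pluripotency genes had medians of 1.51 in 4F (0.87 without 4F-TTF-iPS #1 and #2) and 0.07 in 3F clones, and their called member over all 20 clones was Manba. The 7 tested 2-cell-like genes, expressed in a small share of ES cells, had medians of 1.31 in 4F (0.22 without those clones) and -0.92 in 3F clones and no call, with Gm397 (Zscan4) at 0.20 and Gm428 at 0.50 over all clones.

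**Figure D5:**
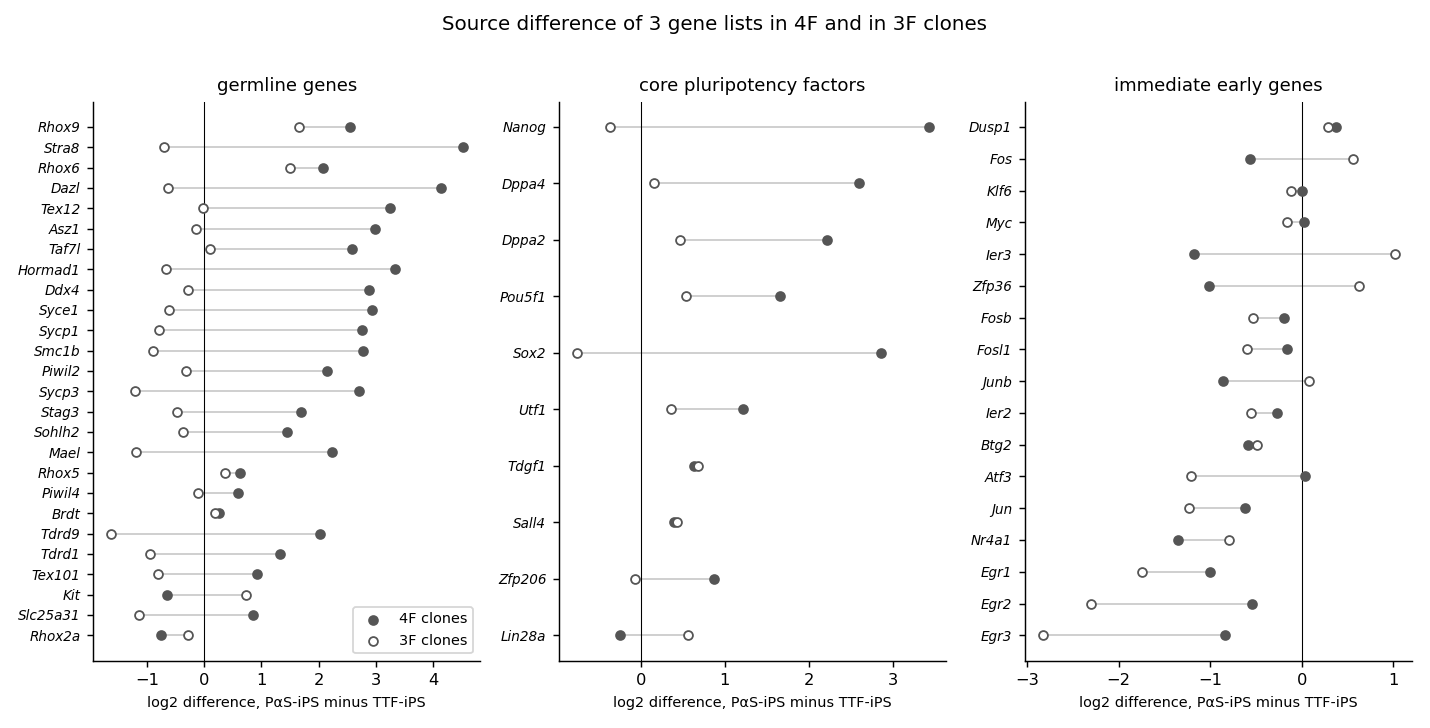
Source difference (horizontal axis, log2 PαS-iPS minus TTF-iPS) in 4F clones (filled) and in 3F clones (open) for the tested genes of 3 lists, each ordered by its difference over all 20 clones. In the germline list most filled points lie to the right of 0, with Stra8 at 4.51, and most open points near or left of it, whereas in the immediate early list Egr1, Egr2, Egr3, Nr4a1 and Jun lie left of 0 for both.

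Whether clones kept genes of their source was asked with probes chosen on the primary arrays alone. Of 2514 probes at least 4-fold higher in primary PαS than TTF cells, 1936 were tested in the clones, with 18 called higher (0.93%) and 52 called lower (2.69%) in PαS-iPS clones, against 0.553% and 0.969% of all tested probes. Their median difference was -0.13 (SD between clones 0.0866), against 0.01 for all tested probes, and 36.3% were positive. It was -0.14 in 4F and -0.13 in 3F clones, but 0.02 with normexp. Of 3225 probes higher in primary TTF cells, 1866 were tested, with 22 called higher (1.18%) and 38 lower (2.04%), a median of 0.00 and 50.5% positive. The choice rests on 1 array per source and has no replicate check. On that of primary TTF cells the summed signal of 18 haematopoietic genes was 532, against 56.1 in primary PαS cells, and CD45 (Ptprc) was at 4.14, against -5.75.

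Genes furthest apart between the primary cells illustrate this. Pkp1 (0.81 in primary PαS and -8.74 in primary TTF cells) and Gna14 (-0.88 and -8.18) were lower in PαS-iPS clones as given above, although both were higher in primary PαS cells. Among the genes with the largest excess in primary PαS cells, Barx1 (0.01), Serpinb2 (-0.27), Crct1 (-1.63) and Pitx1 had limma adjusted p of 0.117 to 0.98. Of the 5 in primary TTF cells, all known from leukocytes, Mpeg1, a perforin-like protein of macrophages, was lower in PαS-iPS clones (at least 4.16-fold, limma adjusted p = 0.0438, or 0.228 with normexp). The differences of Cd52 (1.07), Ctss (0.15), Arhgap25 (-0.55) and Fcgr2b (-0.93) did not pass (0.142 to 0.763).

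The R² value to the mean of the ES arrays was 0.883 ± 0.0145 (SD, n = 10) in PαS-iPS and 0.871 ± 0.0163 (SD, n = 10) in TTF-iPS clones. Permuting clones within 4F and within 3F, in all 63504 arrangements, gave a two-sided exact p of 0.125 for the difference of 0.0112, and the smallest p this design allows is 3.1e-05. The means of PαS-iPS and TTF-iPS clones were 0.890 and 0.871 in 4F clones and 0.875 and 0.872 in 3F clones. Without 3F-PαS-iPS #3, the lowest of the PαS-iPS clones, the difference was 0.0138 and the exact permutation p was 0.0351. With any other single clone left out, the exact permutation p was 0.071 to 0.252. Without 4F-TTF-iPS #1 and #2 the difference was 0.00354 (exact permutation p = 0.47).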

How the data were processed

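Total RNA of the clones, ES cells and primary cells had been hybridized by the authors to 1-colour Agilent whole mouse genome arrays. The deposited scanner files give for each spot the Agilent Feature Extraction intensity after background subtraction. A deposited table of log2 values, which the authors made with GeneSpring GX and centred at a median of 0 per probe over 35 arrays (41266 probes), was used as an alternative only.

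Intensities were divided by the 75th percentile of the non-control probes of each array and log2 transformed. Control spots and outlier spots (54 to 112 per clone array) were left out, and spots of a probe were averaged. Of 41174 gene probes, 23082 were named by accession, 6582 by symbol and 3073 by synonym in RefSeq, and 8437 kept the array's name. Positions are those of mm7 in the deposited files. A probe was tested if all 5 arrays of any of the 4 groups detected it well above background, as 24976 did.

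limma 3.58.1 in R 4.3.3 fitted the 4 groups of 5 clones, with source and factor number, and averaged the source difference over 4F and 3F. Benjamini-Hochberg adjustment covered all tested probes. Python 3.11.15 with numpy 2.4.6, pandas 2.3.3 and scipy 1.17.1 made the tables and the exact permutation test. The fits were tested on simulated data. A gene in the text was one of the 12 largest called differences per direction (above background in at least 8 of 10 clones of the higher source), a called gene without overlap, a called list member or the member furthest from 0 of a list with none, one of a few fixed genes, one of 5 source genes per direction, or one of the 5 smallest interaction p-values. A few genes that this rule chose are not reported here. Other list members, promoters and non-overlapping probes under 2-fold were chosen after their values were seen. The members and the 26 gene lists (495 genes) were chosen with earlier results of these data known. No source says that clones came from separate animals, so p-values measure the spread between clones. Clone numbers did not pair the clones (correlations of same-numbered deviations from -0.271 to 0.223). The number of arrays limits the precision. Alternatives were normexp (offset 50) background correction, quantile normalization, the authors' table, other filters on dim probes, 1 fit of 7 groups, slide or clone number as a block, no covariate and clones left out.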

Additional observations from a re-analysis of the deposited data

Results flagged for a closer look

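Of 283 groups of 5 clones examined, 26 held a clone whose gap to the nearest other clone exceeded the 95% limit of Dixon's test, and chance gives about 1 in 20 groups. Values are log2 levels. 4F-PαS-iPS #2 stood apart from its group for S100a14 (2.73), Gna14 (-1.28), Crct1 (3.86) and Klk1 (0.013), and it was also the clone of its group nearest to the 4F-TTF-iPS clones for these genes. 4F-TTF-iPS #5 stood apart for Zfp945 (-1.07), Pnoc (0.81), Egr2 (-2.02) and Nr4a1 (3.15). Other TTF-iPS clones apart were 4F-TTF-iPS #1 for 3830417A13Rik (-4.70) and Serpinb2 (-4.25), #3 for Pkd2 (-3.87), #4 for the second Psmb8 probe (-1.38) and Fcgr2b (-0.59), 3F-TTF-iPS #5 for Fthl17a (-0.74), Nes (1.26) and Crct1 (-0.86), #1 for Pkp1 (-4.94), #3 for Pnoc (1.07) and #4 for Cdx2 (-0.45). Among PαS-iPS clones, 3F-PαS-iPS #4 stood apart for Ldoc1 (-3.83), 3830417A13Rik (1.39) and Cavin1 (1.23), #1 for Cbr2 (-1.68) and Gna14 (-0.85), #3 for Gata3 (1.67), and 4F-PαS-iPS #3 for Zfy1 (-3.30).

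The interaction test of limma between source and factor number, without slide in the fit, passed for 1731 probes, 20 of them among the named genes. With slide as a random block it passed for 0 probes. The 4F minus the 3F difference was positive for Ankrd34b (4.93, with no 4F-TTF-iPS clone above background), Utp14b (2.67), Bglap (2.30), Lcp1 (2.16), Egr3 (2.00, with no PαS-iPS clone well above background), Tfap2c (1.79), Egr2 (1.76), Usp48 (1.52) and the protease Ctss (1.29). It was negative for Klk1 (-8.16), Pkp1 (-5.48), Cbr2 (-5.40), S100a14 (-5.39), Ly6d (-4.88), Slc38a5 (-4.71), Gna14 (-4.63), Ly6a (-3.64), Hoxc10 (-3.35), Cavin1 (-1.66) and the Myc antagonist Mxd1 (-1.26). For Klk1, Pkp1, S100a14, Ly6d and Slc38a5 the high levels were those of 4F-TTF-iPS clones and, for Pkp1, S100a14 and Slc38a5, of 4F-PαS-iPS #2, and for Egr2 and Egr3 those of 3F-TTF-iPS clones.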

How the results depend on the processing

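The count of 380 called probes was 381 with the authors' table, 353 without 4F-PαS-iPS #1 and #4 (180 higher, 51.0%), 318 with quantile normalization, 445 with no filter on dim probes (106 higher, 23.8%), 217 with no covariate, 199 with probes above background on all 20 clones, 158 with probes within 2-fold between the ES arrays, 157 without 4F-TTF-iPS #1 and #2 (41 higher, 26.1%), 137 in 1 fit of 7 groups, 62 with normexp (61 of the 380), 23 with slide as a random block (6 higher, 26.1%; 22 of the 380) and 1305 with no fold minimum. With clone number as a replicate block, although the numbers did not pair the clones, it was 120. Leaving out 1 clone gave 260 (4F-TTF-iPS #4) to 518 (3F-TTF-iPS #5). Slide as a fixed block could not be fitted for the 20-clone, 4F and interaction comparisons and gave 4 for 3F clones, and as a random block, added after seeing the data, it gave 35 for 4F clones, 8 for 3F clones and 0 for the interaction. In 4F clones normexp gave 1025, and leaving out 4F-TTF-iPS #1 and #2 gave 504 (1 clone left out: 1260, without 4F-TTF-iPS #1, to 2317). In 3F clones normexp gave 33, and leaving out 1 clone 113 (3F-PαS-iPS #5) to 461 (3F-PαS-iPS #1), with 121, 157, 136 and 159 without 3F-PαS-iPS #4 and #3 and 3F-TTF-iPS #3 and #4. For the interaction normexp gave 999, and the count was 274 without 4F-TTF-iPS #1 and #2 (1 clone left out: 979, 4F-TTF-iPS #2, to 2528). The 5 trophoblast calls became 1 without 4F-TTF-iPS #1 and #2 and 0 with slide as a random block, the 2 germline calls 1 and 0, and of the 4 immediate early calls 3 and 2 were kept. The median of PαS source genes was 0.0205 with normexp (1 clone left out: -0.154 to -0.110), and that of TTF source genes 0.148 with normexp and -0.121 with no filter (-0.021 to 0.0255). The difference in R² (0.0112) was 0.0204 over tested probes alone (exact permutation p = 0.194), 0.0144 (0.0555) and 0.00715 (0.345) against either ES array alone, and 0.00647 to 0.0138 with 1 clone left out. The cause of these changes was not tested.

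Of 55 called probes named here, the adjusted p stayed under 0.05 in the same direction, whatever the fold, for 28 with normexp, 48 with quantile, all 55 with the authors' values, 26 with 7 groups, 11 with slide as a random block, 26 with the replicate block, and 26 without 4F-TTF-iPS #1 and #2. Signs turned at other probes of Zfp945 (0.17), Cd38 (-0.42) and Mrpl47 (0.19), with normexp for Evx1 (0.00495), Egr3 (0.0104), Gm397 (-0.12), Col1a1 (-0.0461), Serpinb2 (0.17), Fcgr2b (0.00558) and Utp14b (0.14), with quantile for Col1a1 (-0.0498) and Utp14b (0.0812), with slide as a random block for Col1a1 (-0.39) and Utp14b (0.094), without 4F-TTF-iPS #1 and #2 for Gm428 (-0.46), Gm397 (-0.75) and Col1a1 (-0.14), without 4F-PαS-iPS #1 and #4 for Serpinb2 (0.16), and at other Col1a1 probes (-0.10 and -0.0243). With 1 clone left out, ranges that crossed 0 were Gm428 -0.14 to 0.74, Zfy1 -0.035 to 0.13, Gm397 -0.38 to 0.46, Col1a1 -0.17 to 0.16, Barx1 -0.0568 to 0.10 and Utp14b -0.17 to 0.11. Only Evx1 and Egr3 among these were called genes measured by the same probe. Normexp raises dim signals, and differences that rest on probes near background are limited by the signal over background.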

Other observations

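Chromosome 5 held 9 of the 34 probes without overlap (26.5%), against 6.43% of the tested probes, a pattern noticed after the values were seen and not tested. These 9 probes were those of Pi4k2b (at both of its probes), Cd38, Ppef2, Ccdc96, Galnt11, Msx1, Fastk and Ift81. Those of Fastk, Galnt11, Ccdc96, Msx1, Cd38 and Pi4k2b lay in 1 stretch from 23481657 to 52141584 (mm7). The probes of Ppef2 and Ift81 started at 92214453 and 121793378. Pi4k2b, Ppef2, Ccdc96, Galnt11 (-0.97), Msx1 (-0.64) and Ift81 (-0.36) were lower in PαS-iPS clones, and Cd38 and Fastk (0.52) were higher.

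The Y-linked helicase gene Ddx3y was well above background in 4F-PαS-iPS #3 (-0.11), 3F-PαS-iPS #1 (0.22), 3F-PαS-iPS #2 (-0.17) and 4F-TTF-iPS #3 (-0.55). Among the PαS-iPS clones these were the ones with Zfp945 at 0.34, 0.77 and 0.55, while the other PαS-iPS clones were at -7.02 to -5.78, and 4F-TTF-iPS #3 was the TTF-iPS clone with Pkd2 at -3.87. At those 2 probes the ES arrays lay near the lower clones, with Zfp945 at -6.24 on both and Pkd2 at -4.35 and -3.12. Of these clones 3F-PαS-iPS #1 and #2 are known to be male, the sex of the others is not given in the sources used here, and the part of sex in the source differences was not tested. Eif2s3y, also Y-linked, was well above background in 4 PαS-iPS clones and 1 TTF-iPS clone. In primary PαS cells Ddx3y was at 0.64, and in primary TTF cells at -8.82, not well above background.

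Gata6, a transcription factor of primitive endoderm, was at 2.15 to 4.33 in all 20 clones and at -2.77 and -2.74 on the ES arrays, and the summed signal of 17 primitive endoderm genes was 190 to 613 in the clones and 12.2 and 16.6 on the ES arrays. Their difference between the sources was not called for any gene of that list.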
